A study of Mus musculus with 9 samples.

Results

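The CXC chemokine ligands examined here are 8 genes, Cxcl1, Cxcl2, Cxcl3, Cxcl9, Cxcl10, Cxcl11, Cxcl14 and Cxcl16, found by their symbols in GENCODE M21 among the 28137 Ensembl identifiers of the deposited RAW264.7 values, of which 27533 had a name. RAW264.7 is a mouse macrophage line, labeled as monocyte-macrophage leukemia cells. All 9 libraries came from cells transfected with 60 nM siRNA for 6 h, kept in complete medium for 12 h and stimulated for 24 h with lipopolysaccharide (LPS) at 100 ng/ml, according to their labels. The library titles also carry 6H, without saying which step this time refers to. A group of 3 libraries received a negative control siRNA (NC siRNA), 3 received siRNA against SFRP2, a secreted Wnt modulator, and 3 received siRNA against RAB6A, a small GTPase of Golgi traffic. No library without LPS or without siRNA was analysed here, so LPS and transfection were shared by all groups. The study's methods add interferon-gamma to the LPS and give another siRNA dose, transfection reagent and medium than the labels, and do not describe the RAB6A group. It is not stated whether the 3 libraries of a group were separate cultures or, for SFRP2, whether they received 1 siRNA sequence, several or a mixture. The SFRP2 libraries are titled siRNA with the numbers 1 to 3, and the study's supplement lists 3 SFRP2 siRNA sequences under such names. Titles of the NC and RAB6A libraries are numbered likewise, so the numbers alone do not settle this. P-values therefore measure the spread between these libraries, which may be technical or, for SFRP2, may lie between siRNA sequences.

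CXC chemokines are small secreted proteins that direct the migration of leukocytes through G protein-coupled receptors. Cxcl1, Cxcl2 and Cxcl3 bind Cxcr2 and attract neutrophils, and macrophages induce them through Toll-like receptors and NF-kB. Cxcl9, Cxcl10 and Cxcl11 bind Cxcr3, which draws activated T cells and natural killer cells, and are classic products of interferon and STAT signaling. Cxcl16 is made as a transmembrane protein that is shed by proteases and binds Cxcr6, while Cxcl14 is a constitutive chemokine of epithelia and other tissues.

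The authors' values are FPKM, that is, reads per gene scaled to its exon length and to the reads of the library. The read number behind each value was recovered from the steps between low FPKM values, and the libraries held 41608400 to 47149300 reads in NC siRNA, 34743300 to 40562600 in SFRP2 siRNA and 32758700 to 37833900 in RAB6A siRNA, so the control libraries were the deepest. All 8 macrophage markers were expressed in every group, with a summed FPKM of 4457 to 4909 in NC siRNA, 3945 to 4263 in SFRP2 siRNA and 3921 to 4074 in RAB6A siRNA. Of 20 markers of T cells, B cells, neutrophils, fibroblasts, endothelium and epithelium, 17 had a row, and no single value exceeded 1.32 FPKM. Rab6a was at 24.3, 27.3 and 25.5 FPKM in the NC siRNA libraries and at 21.2, 20.7 and 20.4 FPKM in those labeled RAB6A siRNA (log2 fold change -0.31 ± 0.06 (SE), adjusted p = 0.0024 by limma). The targeted RNA was thus 0.808 of its control level. This drop was no larger than that of many genes, as 35.3% of all genes tested fell more. Sfrp2 rested on 2 to 4 reads in every library and had 4, 4 and 2 reads in SFRP2 siRNA (0.0401 FPKM on average), above the 2 reads of each NC siRNA library in FPKM (0.0213 on average). So few reads cannot check the SFRP2 siRNA labels, and neither a fall nor a rise is read from them.

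The 6 ligands with measurable RNA spanned a wide range of levels (see the plot of FPKM by library). In NC siRNA, Cxcl2 was the highest at 309.7 ± 44.2 FPKM (SD, n = 3), followed by Cxcl10 at 103.7 ± 3.85, Cxcl9 at 6.02 ± 0.215, Cxcl11 at 5.87 ± 0.710, Cxcl16 at 2.37 ± 0.178 and Cxcl14 at 0.975 ± 0.161 FPKM. Cxcl3 at 0.0893 ± 0.0527 FPKM and Cxcl1 at 0.0561 FPKM were close to the level of single reads. Neighbors in this order had separate ranges in NC siRNA with the exception of Cxcl9 and Cxcl11, at 5.89 to 6.26 and 5.13 to 6.55 FPKM, and of Cxcl3 and Cxcl1. The order of Cxcl9 and Cxcl11 also turns with the length used, since FPKM here counts all annotated exons, 3016 bases for Cxcl9 and 3794 for Cxcl11. Levels were also scaled as if all reads came from the first listed transcript, 2889 bases for Cxcl9 and 1581 for Cxcl11. Cxcl11 then stood at 14.1 ± 1.70 and Cxcl9 at 6.28 ± 0.225 FPKM in NC siRNA. Whether the reads came from these transcripts was not tested. In SFRP2 siRNA the order by FPKM was Cxcl2, Cxcl10, Cxcl11, Cxcl9, Cxcl16 and Cxcl14, where Cxcl16 and Cxcl14 overlapped at 1.61 to 2.65 and 1.42 to 2.31 FPKM. In RAB6A siRNA it was Cxcl2, Cxcl10, Cxcl11, Cxcl16, Cxcl9 and Cxcl14, and no neighbors overlapped. Cxcl2 made up 69.5% to 75.9% of the summed FPKM of the 8 ligands in NC siRNA.

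**Figure D1:**
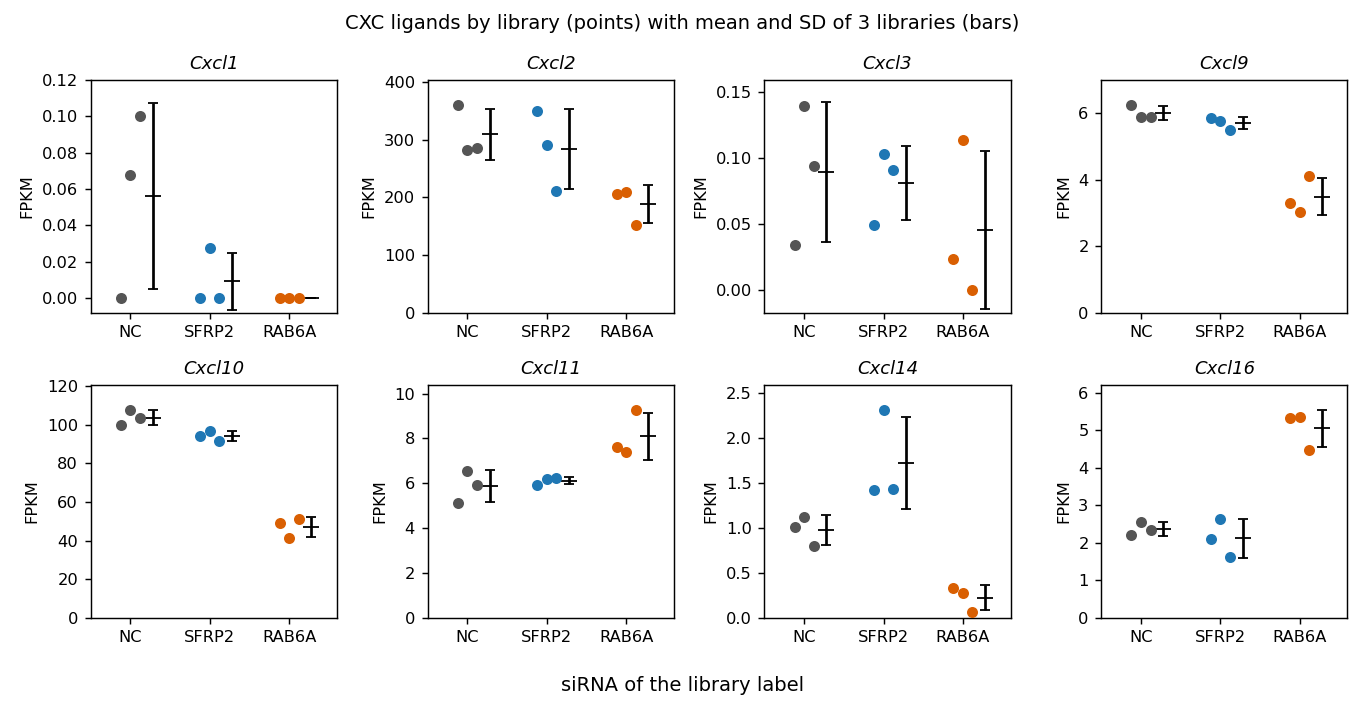
FPKM of each ligand on a linear axis, with a point for each library, and the mean and SD of the 3 libraries of a group beside the points. The RAB6A siRNA points of Cxcl2, Cxcl9, Cxcl10 and Cxcl14 lie below, and those of Cxcl11 and Cxcl16 above, all points of NC siRNA.

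Both clusters of these genes lie on chromosome 5 (GRCm38, GENCODE M21). Cxcl3 (ENSMUSG00000029379, chr5:90786103-90789600), Cxcl1 (ENSMUSG00000029380, chr5:90891241-90893115) and Cxcl2 (ENSMUSG00000058427, chr5:90903871-90905938) lie on the + strand within 119.8 kb. Bases before the RefSeq transcript starts (GRCm38.p6) are shown for these 3 genes, 5′ to 3′ on the + strand, because all of them carry the marked letters while Cxcl2 lies orders of magnitude above Cxcl1 and Cxcl3 in RNA level. The windows are chr5:90785981-90786100 for Cxcl3, chr5:90891125-90891240 for Cxcl1 and chr5:90903779-90903870 for Cxcl2, the latter 2 ending before the GENCODE gene starts. Capitals mark an NF-kB-type site followed by a TATA-like run.
Cxcl3: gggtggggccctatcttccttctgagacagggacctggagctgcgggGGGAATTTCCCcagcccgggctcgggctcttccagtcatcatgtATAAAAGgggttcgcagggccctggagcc
Cxcl1: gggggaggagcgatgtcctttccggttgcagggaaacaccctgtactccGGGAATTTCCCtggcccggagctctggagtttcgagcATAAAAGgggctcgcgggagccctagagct
Cxcl2: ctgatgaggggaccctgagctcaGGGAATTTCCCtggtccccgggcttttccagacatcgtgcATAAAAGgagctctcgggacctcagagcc
The marked site joins GGGAATTTC as written and GGGAAATTC on the reverse strand, which overlap, and the TATA-like run was searched as ATAAAAG. On both strands of the 32851 RefSeq mouse promoter windows (250 bases before to 50 after a start), GGGAATTTC occurred in 0.259%, GGGAAATTC in 0.253% and ATAAAAG in 5.42%. The motifs were chosen after the sequences were seen, and a match is a description of letters, not of binding.

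Cxcl9 (ENSMUSG00000029417, chr5:92321347-92328079), Cxcl10 (ENSMUSG00000034855, chr5:92346638-92348889) and Cxcl11 (ENSMUSG00000060183, chr5:92359544-92365485) lie on the - strand within 44.1 kb. GENCODE M21 lists Cxcl11 as a polymorphic pseudogene. For Cxcl9 (chr5:92328080-92328329) and Cxcl10 (chr5:92348890-92349139), which changed most alike among the Cxcr3 ligands, the 250 bases before the RefSeq start are given on the - strand. Capitals mark GAAANNGAA, a short form like part of the interferon-stimulated response element (ISRE), and NF-kB-type sites. The base after this run is A in Cxcl10 and G in Cxcl9, so the 2 stretches are not alike beyond the searched letters.
Cxcl9: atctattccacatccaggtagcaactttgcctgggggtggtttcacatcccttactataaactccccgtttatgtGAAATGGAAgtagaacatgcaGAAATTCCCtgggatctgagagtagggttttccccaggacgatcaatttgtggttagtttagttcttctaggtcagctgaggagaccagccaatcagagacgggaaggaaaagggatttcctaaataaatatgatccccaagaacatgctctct
Cxcl10: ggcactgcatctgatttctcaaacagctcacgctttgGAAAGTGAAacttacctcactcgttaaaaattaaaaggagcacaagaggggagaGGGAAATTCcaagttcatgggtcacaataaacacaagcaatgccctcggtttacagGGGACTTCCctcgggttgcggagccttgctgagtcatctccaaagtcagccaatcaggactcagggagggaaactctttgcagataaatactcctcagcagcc
GAAANNGAA was found in 8.56% of all promoter windows, and in those of Cxcl9, Cxcl10 and Cxcl14. The NF-kB-type letters were GGGAATTTC on the reverse strand in Cxcl9, and GGGAAATTC and GGGACTTCC in Cxcl10, the last of them present in 0.834% of all windows. Of the 8 ligands, 6 matched a promoter entry, and Cxcl11 and Cxcl16 did not. Cxcl16 (ENSMUSG00000018920, chr11:70453983-70459984) and Cxcl14 (ENSMUSG00000021508, chr13:56288643-56296551) lie apart from the clusters.

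**Figure D2:**
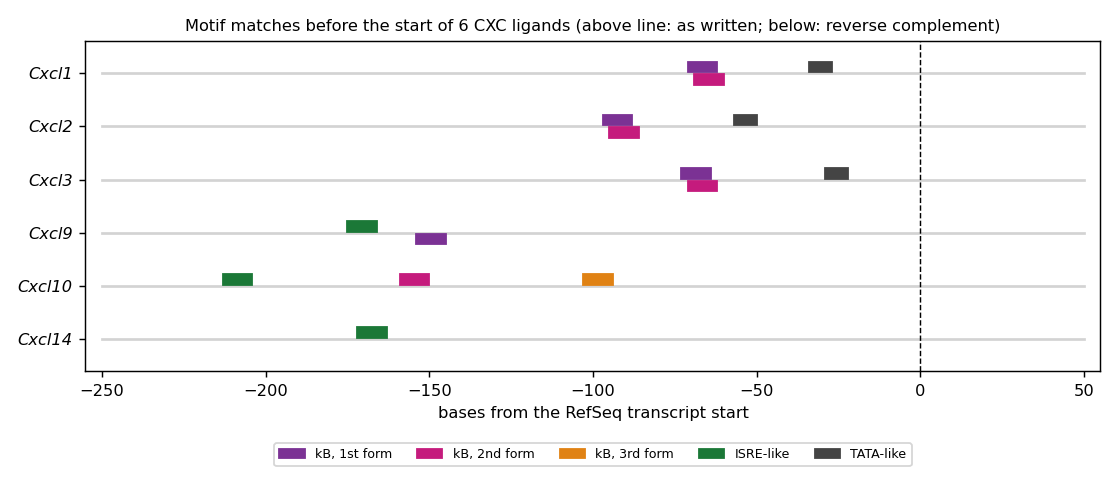
Matches of 5 motifs in the RefSeq promoter windows of 6 ligands, by distance in bases from the transcript start, above the line where the motif reads as written and below it where it reads on the reverse strand. The NF-kB-type forms are, in order, GGGAATTTC, GGGAAATTC and GGGACTTCC, and in Cxcl1, Cxcl2 and Cxcl3 the first and second overlap upstream of the TATA-like run.

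RAB6A siRNA was compared with NC siRNA to ask how the ligands stood in the libraries labeled RAB6A siRNA. Cxcl2, Cxcl9, Cxcl10 and Cxcl14 fell, and Cxcl11 and Cxcl16 rose (see the plot of log2 fold changes). All 6 ligands past the filter of a mean of 0.5 FPKM had an adjusted p under 0.05, and 3 of them, Cxcl10, Cxcl14 and Cxcl16, also passed an absolute log2 fold change of 1 and were called as differentially expressed genes (DEGs). The fold threshold was missed by Cxcl10 with a correction for GC content and length (-0.98), by Cxcl16 with a pseudocount of 1 (0.84) or quantile normalization (0.98), and by Cxcl14 with a pseudocount of 1 (-0.69). Cxcl14 reached the filter only through NC siRNA, where it was high, so nothing is drawn from its place in these counts. This count has to be read against the whole transcriptome, in which 74.1% of the 12712 genes tested had an adjusted p under 0.05, 37.6% higher and 36.5% lower, and 30.1% were DEGs. The groups did not overlap for any of the 6 ligands, as for 77.4% of all genes tested. The median log2 fold change of the 6 ligands was -0.75, beside 0.03 for all genes. This median includes Cxcl14 and ligands that moved both ways, so no shift of the set is read from it. Cxcl14 is also among the 6 without overlap. The sum of all 8 ligands was 253 ± 28.2 FPKM in RAB6A siRNA against 429 ± 40.3 in NC siRNA (p = 0.1 in a two-sided exact permutation test, which can give no smaller p with 3 against 3 libraries). In these bulk values, fewer cells with a transcript and less of it per cell cannot be told apart.

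**Figure D3:**
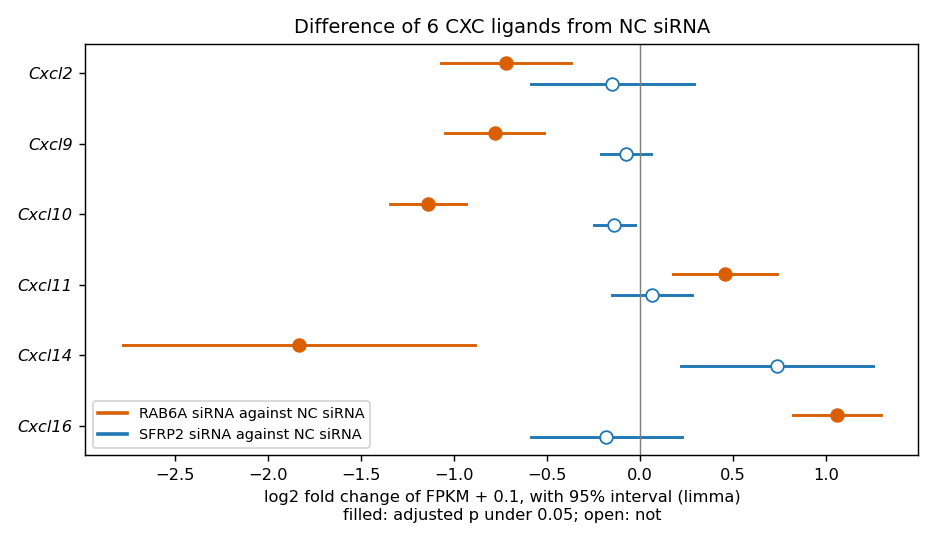
Log2 fold change of FPKM + 0.1 against NC siRNA for the 6 ligands past the filter, with 95% intervals from limma, filled where the adjusted p was under 0.05. All 6 points of RAB6A siRNA are filled, 4 below and 2 above 0, and all 6 of SFRP2 siRNA are open.

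Cxcl10 measured 100.0, 107.7 and 103.3 FPKM in the NC siRNA libraries and 49.3, 41.1 and 51.1 FPKM in the RAB6A siRNA libraries. Every RAB6A siRNA value was thus less than the lowest control value, and the mean was 2.20-fold lower (log2 fold change -1.14 ± 0.09 (SE), adjusted p = 1.8e-05 by limma). Of all genes tested, 10.3% fell more. Cxcl9 stood at 6.26, 5.89 and 5.90 FPKM in NC siRNA and at 3.30, 3.04 and 4.11 FPKM in RAB6A siRNA. It moved in the direction of Cxcl10, 1.73-fold lower, and short of the DEG threshold (log2 fold change -0.78 ± 0.11, adjusted p = 4.8e-04). Cxcl11, the third ligand of Cxcr3, measured 5.13, 6.55 and 5.93 FPKM in NC siRNA and 7.63, 7.38 and 9.28 FPKM in RAB6A siRNA. It was the Cxcr3 ligand that rose, 1.38-fold (log2 fold change 0.46 ± 0.12, adjusted p = 0.0095), and 32.4% of all genes rose more. With a correction for GC content and length its log2 fold change was 0.78. On the opposite strand, the gene Gm2673 shares 41.7% of the exon bases of Cxcl11, and no FPKM of Gm2673 was available in any group. It is not stated whether counting used the strand, so that reads of both cannot be told apart.

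Within a library, the ratio of ligands does not depend on its depth. Cxcl10 exceeded Cxcl11 16.4- to 19.5-fold in the NC siRNA libraries, 14.7- to 15.9-fold in SFRP2 siRNA and 5.51- to 6.46-fold in RAB6A siRNA (see the plot of ratios). Means were 17.8 ± 1.55, 15.4 ± 0.611 and 5.85 ± 0.532 (SD, n = 3), and neither siRNA group overlapped with NC siRNA (exact two-sided permutation test p = 0.1 for each). The other 4 ratios overlapped between SFRP2 siRNA and NC siRNA (exact permutation p = 0.4 for Cxcl9 to Cxcl11 and for Cxcl10 to Cxcl9, 1.0 for Cxcl2 to Cxcl10 and 0.9 for Cxcl16 to Cxcl10). The ratio of Cxcl9 to Cxcl11 was 1.04 ± 0.165 in NC siRNA and 0.429 ± 0.0157 in RAB6A siRNA (exact permutation p = 0.1). Cxcl10 and Cxcl9 kept a closer ratio, 17.3 ± 1.19 in NC siRNA and 13.6 ± 1.25 in RAB6A siRNA (exact permutation p = 0.1). The ratio of Cxcl16 to Cxcl10 was 0.0228 ± 8.7e-04 in NC siRNA and 0.109 ± 0.0212 in RAB6A siRNA (exact permutation p = 0.1). That of Cxcl2 to Cxcl10 overlapped between these groups, at 2.62 to 3.61 and 2.96 to 5.10 (exact permutation p = 0.2).

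**Figure D4:**
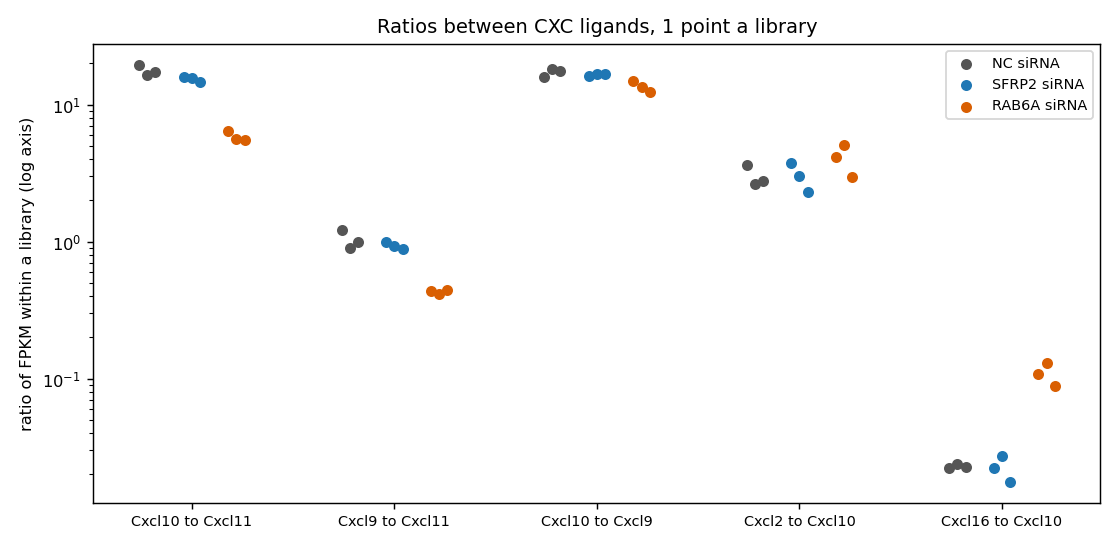
Ratios of FPKM between ligands within each library, on a log axis, with a point for each library. The RAB6A siRNA points lie below those of NC siRNA for Cxcl10 to Cxcl11, Cxcl9 to Cxcl11 and Cxcl10 to Cxcl9, lie above them for Cxcl16 to Cxcl10, and overlap with them for Cxcl2 to Cxcl10.

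Among the Cxcr2 ligands, Cxcl2 was the one expressed. It measured 361, 282 and 286 FPKM in NC siRNA and 205, 210 and 151 FPKM in RAB6A siRNA. The highest RAB6A siRNA library lay beneath the lowest control library, and the mean was 1.64-fold lower (log2 fold change -0.72 ± 0.15 (SE), adjusted p = 0.0031). Cxcl1 had 0, 6 and 8 reads in NC siRNA, 0, 2 and 0 in SFRP2 siRNA and 0 in each RAB6A siRNA library. A count of 0 allows up to 0.0977 FPKM in the shallowest RAB6A siRNA library, taking 3 read pairs (6 reads, since mates were mostly counted apart) as the limit and covering counting error only, so that a difference was not detectable at this depth (exact permutation p = 0.4). Cxcl3 had 5, 23 and 14 reads in NC siRNA, 7, 14 and 11 in SFRP2 siRNA and 3, 15 and 0 in RAB6A siRNA (exact permutation p = 0.4 for RAB6A siRNA against NC siRNA), and these groups overlapped. Of the 28 pairs of ligands, Cxcl2 and Cxcl3 alone shared runs of 50 bases, 5.84% of the runs of Cxcl2 and 3.51% of those of Cxcl3, and how the counting treated such reads is not stated. Given the level of Cxcl2, the few reads of Cxcl3 are uncertain.

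Cxcl16 measured 2.21, 2.56 and 2.34 FPKM in NC siRNA and 5.33, 5.35 and 4.48 FPKM in RAB6A siRNA. It was 2.13-fold higher, with groups far apart relative to their spread (log2 fold change 1.06 ± 0.10 (SE), adjusted p = 5.3e-05), and 16.7% of all genes rose more. Exons of Zmynd15 on the opposite strand share 18.3% of the exon bases of Cxcl16, and Zmynd15 itself was at 0.212 FPKM in NC siRNA and 0.130 FPKM in RAB6A siRNA. Cxcl14 measured 1.01, 1.11 and 0.798 FPKM in NC siRNA, from 77, 96 and 62 reads, and 0.331, 0.275 and 0.0668 FPKM in RAB6A siRNA, from 22, 19 and 4 reads. The mean was 4.35-fold lower, with the widest error of the 6 ligands (log2 fold change -1.83 ± 0.40, 95% interval -2.78 to -0.88, adjusted p = 0.0042). Cxcl14 passed the filter only through NC siRNA, the group in which it was high, and was not tested with a filter of 1 FPKM or without NC siRNA replicate 2. The log2 fold change of so low a gene depends on the pseudocount of 0.1, and was -0.69 with a pseudocount of 1 and -2.32 with 0.01.

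SFRP2 siRNA was compared with NC siRNA to ask whether the ligands differed in the libraries labeled SFRP2 siRNA. None of the 6 ligands tested had an adjusted p under 0.05 by limma, nor did any of the 12017 genes tested (0%), with the smallest adjusted p at 0.140. The study, with a count-based tool and the same thresholds, reports DEGs for SFRP2 siRNA in RAW264.7 cells, chemokine pathway genes among them. That tool was not applied here, and the cause of the difference was not tested. At an unadjusted p under 0.05 there were 2 ligands, Cxcl10 and Cxcl14, beside 18.5% of all genes. The SFRP2 siRNA and NC siRNA libraries did not overlap for 3 ligands, Cxcl9, Cxcl10 and Cxcl14, and for 24.7% of all genes. The 18.5% is more than a threshold of 0.05 would give on average if no gene differed. That 0% passed adjustment is thus no evidence that the groups were alike. With voom on the recovered reads, 41 genes passed an adjusted p of 0.05 and 0 ligands were among them.

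Cxcl10 measured 94.4, 96.8 and 91.6 FPKM in the SFRP2 siRNA libraries, each less than the lowest NC siRNA library at 100.0 FPKM. The difference was small, 1.10-fold, and did not pass adjustment (log2 fold change -0.14 ± 0.05 (SE), unadjusted p = 0.022, adjusted p = 0.211 by limma). Cxcl14 measured 1.42, 2.31 and 1.43 FPKM in SFRP2 siRNA, from 105, 164 and 91 reads. Each value was above the highest of NC siRNA at 1.11 FPKM, and the mean was 1.76-fold that of NC siRNA (log2 fold change 0.74 ± 0.22, unadjusted p = 0.0119, adjusted p = 0.192). Of all genes tested, at any level, 1.35% had a larger log2 fold change, and the opposite order was seen in RAB6A siRNA. Over the alternatives the log2 fold change of Cxcl14 ranged from 0.45 to 0.85, with adjusted p of 0.103 or more by limma. Cxcl9 stood at 5.85, 5.76 and 5.51 FPKM in SFRP2 siRNA, just below the lowest NC siRNA value of 5.89 (log2 fold change -0.07, 95% interval -0.21 to 0.06, adjusted p = 0.505).

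The other ligands overlapped between SFRP2 siRNA and NC siRNA. Cxcl2 ranged from 211 to 351 FPKM in SFRP2 siRNA, the widest spread of the 3 groups, and its 95% interval of -0.59 to 0.29 on the log2 scale leaves room for a change in either direction (adjusted p = 0.689). Cxcl11 measured 5.95, 6.18 and 6.22 FPKM, within the range of NC siRNA (log2 fold change 0.06, 95% interval -0.15 to 0.28, adjusted p = 0.724). Cxcl16 measured 2.10, 2.65 and 1.61 FPKM, with values on both sides of NC siRNA (log2 fold change -0.18, 95% interval -0.59 to 0.23, adjusted p = 0.589). The summed FPKM of the 8 ligands was 394 ± 72.0 in SFRP2 siRNA (exact permutation p = 0.4 against NC siRNA).

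RAB6A siRNA was also set directly against SFRP2 siRNA, where 73.4% of 12764 genes had an adjusted p under 0.05 and 31.1% were DEGs. All 6 ligands tested passed, in the directions seen against NC siRNA. Cxcl14, past the filter only through SFRP2 siRNA, was 7.67-fold lower in RAB6A siRNA (log2 fold change -2.57 ± 0.41 (SE), adjusted p = 9.5e-04). Cxcl10 was 2.00-fold lower (95% interval of the log2 fold change -1.21 to -0.80, adjusted p = 4.8e-05) and Cxcl16 2.38-fold higher (log2 fold change 1.24 ± 0.18, adjusted p = 5.3e-04). The smallest margin was that of Cxcl2 (log2 fold change -0.57 ± 0.20, adjusted p = 0.0368), whose call was lost in 7 of 17 other settings, with adjusted p up to 0.107.

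The receptors of these ligands were measured in the same cells. Of 8 receptors, 7 had a row, and 3 passed the filter in RAB6A siRNA against NC siRNA. Cxcr6, the receptor of Cxcl16, measured 0.124, 0.253 and 0.463 FPKM in NC siRNA and 3.83, 3.53 and 3.45 FPKM in RAB6A siRNA. Ligand and receptor were thus both higher in RAB6A siRNA (log2 fold change of Cxcr6 3.38 ± 0.31 (SE), adjusted p = 4.5e-05). Cxcr6 passed the filter only through RAB6A siRNA, the group in which it was high, so that its call is given as a description. Cxcr3, the receptor of Cxcl9, Cxcl10 and Cxcl11, measured 5.80, 5.91 and 7.45 FPKM in NC siRNA and 3.26, 3.57 and 2.82 FPKM in RAB6A siRNA, without overlap. It fell like Cxcl9 and Cxcl10 and unlike Cxcl11 (log2 fold change -0.96 ± 0.13, adjusted p = 2.7e-04). Cxcr5, the receptor of the B cell chemokine Cxcl13, was at 1.29 and 1.16 FPKM (adjusted p = 0.422). In SFRP2 siRNA against NC siRNA, Cxcr3 and Cxcr5 were tested and neither passed. Of 7 further CXC ligands, 5 had a row and none reached the filter.

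**Figure D5:**
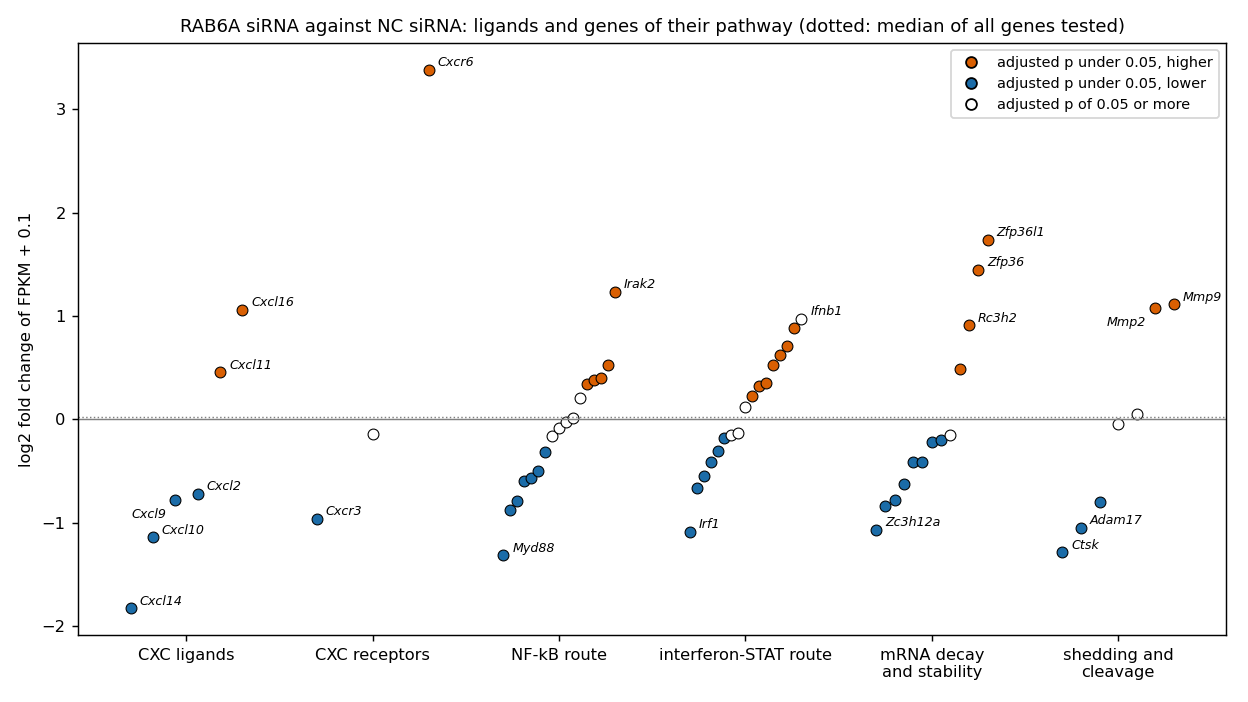
Log2 fold change of FPKM + 0.1 in RAB6A siRNA against NC siRNA for the ligands, their receptors and 4 gene lists of their pathway, with a point for each gene past the filter, colored by direction where the adjusted p was under 0.05. Each list has points on both sides of 0, and Cxcr6 is the highest at 3.38.

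Genes of the NF-kB route that induces Cxcl1 and Cxcl2 moved both ways in RAB6A siRNA. Of 17, 5 rose, 7 fell and 5 did not pass the test, 2 were DEGs and the median log2 fold change was -0.09, a count near the share of all genes (74.1% with an adjusted p under 0.05, 37.6% higher and 36.5% lower), and no result about this list. The adaptor Myd88 fell from 22.0 to 8.75 FPKM (log2 fold change -1.32, adjusted p = 2.9e-06), and the kinase Irak2 of the same receptor complex rose from 17.8 to 42.1 FPKM (1.24, adjusted p = 2.4e-06). Nfkbiz, a nuclear co-activator of secondary response genes, fell from 192 to 112 FPKM, and the subunit Rel rose from 41.7 to 54.4 FPKM. The LPS co-receptor Cd14, at 1679 and 1943 FPKM, and the inhibitor Nfkbia, at 210 and 198 FPKM, did not pass (adjusted p = 0.0785 and 0.292). In SFRP2 siRNA, 0 of 17 passed by limma and 1, Rel, had an unadjusted p under 0.05, beside 18.5% of all genes.

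The interferon-STAT route that induces Cxcl9, Cxcl10 and Cxcl11 had 7 of 17 genes up, 6 down and 4 not past the test, again near the share of all genes, with a median log2 fold change of 0.12. Irf1, a transcription factor of interferon-gamma responses, was its DEG, and fell from 31.4 to 14.7 FPKM (log2 fold change -1.09, adjusted p = 2.9e-06). Irf7 rose from 139 to 229 FPKM and Irf8 from 51.3 to 74.0 FPKM, while Ticam1, the adaptor of the Toll-like receptor branch to interferon, fell from 43.8 to 29.9 FPKM. Stat2 was at 40.4 and 43.9 FPKM (adjusted p = 0.148). In SFRP2 siRNA, 0 of 16 tested passed by limma, and 3 had an unadjusted p under 0.05, close to the 18.5% of all genes, namely Irf1 (log2 fold change -0.31, unadjusted p = 4.7e-04, adjusted p = 0.163), Irf7 (-0.22) and Irf8 (-0.25).

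Chemokine transcripts are known to be destabilized through AU-rich elements in the 3′ untranslated region, with ATTTA as the core. In the first listed transcript, Cxcl2 carried 11 such pentamers in 734 bases, Cxcl1 7, Cxcl3 5, Cxcl9 3, Cxcl10 and Cxcl16 2 each, Cxcl11 1 and Cxcl14 0. The median over 15735 protein-coding transcripts was 1, and 0.477% of them had at least as many per kb as Cxcl2, against 22.6% for Cxcl10. These regions ran from 592 bases in Cxcl1 to 2452 in Cxcl9, so the counts do not rank the ligands by density. Per kb, Cxcl9 carried 1.22 and Cxcl10 2.74, beside a median of 1.07. Of 13 genes of mRNA decay and stability, 4 rose, 8 fell and 1 did not pass, with a median log2 fold change of -0.22, where 37.6% of all genes were called higher and 36.5% lower. Zfp36 (tristetraprolin), which binds AU-rich elements and promotes decay, rose from 157 to 428 FPKM (log2 fold change 1.45, adjusted p = 2.0e-06), and its relative Zfp36l1 rose from 11.4 to 38.2 FPKM (1.73, adjusted p = 3.0e-06). The ribonuclease Zc3h12a fell from 31.0 to 14.8 FPKM (-1.07, adjusted p = 1.2e-05), and Zfp36l2 and Khsrp, further AU-binding decay factors, fell by 0.22 and 0.41 on the log2 scale. The part of these factors in the ligands' levels was not tested, and 0 of 13 passed in SFRP2 siRNA by limma, with 2 at an unadjusted p under 0.05, beside 18.5% of all genes.

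Proteases that shed Cxcl16 or cleave CXC ligands formed the last list, of which 7 of 12 passed the filter, and 2 rose and 3 fell, beside 74.1% of all genes called. Adam10 and Adam17, the sheddases of Cxcl16, fell while Cxcl16 rose. Adam10 went from 24.6 to 14.1 FPKM (log2 fold change -0.80, adjusted p = 2.7e-05) and Adam17 from 39.5 to 19.1 FPKM (-1.05, adjusted p = 8.3e-06). The gelatinases Mmp9 and Mmp2 rose from low levels, 0.542 to 1.27 FPKM and 0.640 to 1.53 FPKM, and Ctsk (cathepsin K) fell from 1.71 to 0.645 FPKM. The abundant cathepsins Ctss, at 488 and 473 FPKM, and Ctsl, at 88.5 and 91.9 FPKM, did not pass (adjusted p = 0.539 and 0.587). These are RNA levels, and no protein or secreted ligand was measured in these libraries. In SFRP2 siRNA, 0 of 7 passed by limma, with 2 at an unadjusted p under 0.05, beside 18.5% of all genes.

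Some cell type markers also differed in RAB6A siRNA. Of the 8 macrophage markers, 1 rose, 3 fell and 4 did not pass, a smaller share called than the 74.1% of all genes. Lyz2 fell from 872 to 214 FPKM (log2 fold change -2.03) and Csf1r from 73.6 to 27.0 FPKM (-1.44), whereas Cd68 was at 1850 and 1682 FPKM (adjusted p = 0.184). Markers of the other cell types stayed at low levels, and those of fibroblasts and endothelium went both ways. All 3 epithelial markers had higher means in RAB6A siRNA, under the filter and with overlap. Epcam was at 0.139 and 0.248 FPKM, Krt8 at 0.313 and 0.405 FPKM, and Cdh1 at 0.101 and 0.114 FPKM in NC and RAB6A siRNA. Krt8 ran from 0.123 to 0.455 FPKM in NC siRNA and from 0.0468 to 1.01 FPKM in RAB6A siRNA. The RAB6A siRNA range thus reached past NC siRNA on both sides, and its mean gives no direction. The neutrophil marker S100a8 fell from 0.896 to 0.135 FPKM, with S100a9 at 0 FPKM in both groups and Mpo at 0.00697 and 0 FPKM. The fibroblast marker Col1a2 rose from 0.310 to 0.825 FPKM, and Col1a1 was at 0.644 and 0.542 FPKM (adjusted p = 0.858). The endothelial marker Pecam1 rose from 0.475 to 0.830 FPKM, and Cdh5, under the filter, was at 0.380 and 0.152 FPKM, lower without overlap. S100a8 passed the filter only through NC siRNA, and Col1a2 and Pecam1 only through RAB6A siRNA, the groups in which they were high. The values of these markers are therefore given as a description. In SFRP2 siRNA, 0 of the 8 macrophage markers passed by limma, with 3 at an unadjusted p under 0.05, beside 18.5% of all genes. Their part in the ligands' changes was not tested.

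Across the 9 libraries, the genes whose log2 levels ran most like a ligand were listed as a description, among 10870 genes with a mean of at least 1 FPKM. Cxcl10 ran with Sec22a (Pearson r = 0.995), Nup133 and Gpr65, and 340 genes exceeded an r of 0.98. Cxcl9 ran with Safb2 (r = 0.992), C2cd3 and Rfc4, Cxcl16 with Sqor (r = 0.990) and Fdxr, and Cxcl14 with Trim13 (r = 0.981), Elp4 and Gm46224. Cxcl2 had no gene above 0.98 and ran closest with Gm39469 (r = 0.974), Khsrp and Arhgef10l, and Cxcl11 ran with Aoah (r = 0.970), Cd9 and Pde6d. These points share 3 groups, of which RAB6A siRNA stands apart for most genes.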

How the data were processed

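Gene values of RAW264.7 cells were analysed in 9 RNA-seq libraries, 3 for each siRNA, grouped by their labels. Values deposited for wound tissue were left out. The values that the authors deposited for the cells are FPKM for each Ensembl identifier. The submitters' processing notes name HISAT2, featureCounts and Subread, without versions, and genome build, annotation and strand setting are not given in the sources used here. The files hold no counts. FPKM times exon length gave whole reads within 0.03 in all 9 libraries for 98.3% of named genes. Genes at 2 reads (1778 to 2135 a library) outnumbered those at 1 (586 to 750) and at 3 (290 to 399), so both mates of most pairs seem to be counted, and "reads" is used here.

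Symbols, exon lengths and positions were taken from GENCODE M21 (GRCm38), and promoters from RefSeq. Log2(FPKM + 0.1) was tested with limma 3.58.1 in R 4.3.3 (lmFit, eBayes with trend) for each pair of groups, over all genes with a mean of at least 0.5 FPKM in its 6 libraries, with Benjamini-Hochberg adjustment over all of them. Fold changes on this scale understate the change of low genes. A gene was called as DEG where its adjusted p was under 0.05 and its log2 fold change exceeded 1 in size, which are the study's thresholds. The count-based tool of the study's methods was not applied to FPKM. Single values and ratios were compared by an exact two-sided permutation test (scipy 1.17.1, Python 3.11.15, numpy 2.4.6, pandas 2.3.3), with 0.1 as the smallest p. Scripts were tested on simulated data.

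The ligands, the lists (written by hand) and the tests were chosen with earlier results of these data known. From each list, up to 4 genes past the filter with the highest NC siRNA mean were named, with up to 2 DEGs a direction, and for each ligand the 3 genes of highest Pearson r over the 9 libraries, of which 1 is not reported here. Markers and overlapping genes outside this rule were named after their values were seen. Alternatives were pseudocounts of 1 and 0.01, no filter, a mean of at least 1 FPKM, median-of-ratios scaling, quantile normalization, no trend, the replicate block, all 9 libraries in 1 fit, voom on recovered reads, a GC and length correction (splines with 5 degrees of freedom), and each library left out.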

Additional observations from a re-analysis of the deposited data

How the results depend on the processing

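The number of ligands with an adjusted p under 0.05 was 6 (RAB6A siRNA against NC siRNA), 0 (SFRP2 siRNA against NC siRNA) and 6 (RAB6A siRNA against SFRP2 siRNA), and ranged from 5 to 6, stayed at 0, and ranged from 5 to 6 over 17 alternatives each; leaving out single libraries gave the same ranges. In RAB6A siRNA against NC siRNA, the 5 arose where Cxcl14 fell under the filter, with a mean of at least 1 FPKM or without NC siRNA replicate 2. Directions of all 6 ligands held there in every alternative, and Cxcl14 ranged from -2.68 (quantile normalization) to -0.69 (pseudocount 1), Cxcl2 from -1.12 (quantile normalization) to -0.57, Cxcl9 from -0.90 to -0.52, Cxcl10 from -1.20 to -0.98, Cxcl16 from 0.84 to 1.33 and Cxcl11 from 0.36 to 0.78, with adjusted p up to 0.0311 for Cxcl11; the GC content and length correction gave -0.52 for Cxcl9, -0.98 for Cxcl10 and 0.78 for Cxcl11. Against SFRP2 siRNA, the GC content and length correction gave -0.38 for Cxcl9 and 0.77 for Cxcl11, quantile normalization -1.07 for Cxcl2, and a pseudocount of 1 -1.14 for Cxcl14. With a pseudocount of 1, ligand DEGs went from 3 to 1 in both RAB6A siRNA comparisons, and DEGs over all genes from 3829 to 2389 and from 3972 to 2501, as a larger pseudocount shrinks low genes. In SFRP2 siRNA against NC siRNA, Cxcl2 turned from -0.15 to 0.052 without SFRP2 siRNA replicate 3 (-0.31 to 0.052 over the libraries left out) and Cxcl11 from 0.06 to -0.027 without NC siRNA replicate 1 (-0.027 to 0.15), and the genes called over the whole table went from 0 to 41, with 2 DEGs, by voom and to 1, a DEG, without NC siRNA replicate 1. The cause was not tested. The call of Cxcl2 in RAB6A siRNA against SFRP2 siRNA was lost without a filter (adjusted p = 0.0762 by limma), without a trend (0.0611), with the GC content and length correction (0.103) and when any of 4 libraries was left out, namely RAB6A siRNA replicate 1 or 3 or SFRP2 siRNA replicate 1 or 2 (0.0541 to 0.107).

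With the replicate block, 6, 0 and 6 ligands were called. Same-numbered libraries did not deviate together (r of -0.0847 to 0.0477), so the numbers are not taken as pairs across groups. Depth limits Cxcl1 and Cxcl3, at 0 to 23 reads, and Cxcl14 in RAB6A siRNA, at 4 to 22 reads.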

Other observations

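Other genes around the ligand clusters gave a further view of RAB6A siRNA against NC siRNA. Within 200 kb of the cluster of Cxcl9, Cxcl10 and Cxcl11, Uso1, a vesicle tethering factor of the Golgi, measured 19.6 ± 0.996 FPKM in NC siRNA and 12.6 ± 0.950 in RAB6A siRNA (SD, n = 3). The nucleoporin Nup54 measured 21.3 ± 1.77 and 10.3 ± 0.726 FPKM, Sdad1 24.6 ± 0.463 and 13.6 ± 1.24 FPKM, and the lysosomal amidase Naaa 1.14 ± 0.137 and 1.82 ± 0.405 FPKM. The lysosomal receptor Scarb2 measured 13.0 ± 0.633 and 11.3 ± 0.777 FPKM. Beside Cxcl2, Mthfd2l, an enzyme of mitochondrial folate metabolism, measured 0.724 ± 0.0875 and 0.731 ± 0.155 FPKM. The predicted genes Gm15710 and Gm43040 lie within the span of Uso1. They measured 13.7 ± 0.856 and 0.0808 ± 0.0362 FPKM in NC siRNA, and 53.4 ± 16.7 and 1.37 ± 0.488 FPKM in RAB6A siRNA. Gm23031, within the span of Sdad1, measured 1.10 ± 0.357 and 3.44 ± 0.954 FPKM. The strand setting of the counting is not stated, so reads of genes within such spans may not be told apart. The ligands therefore lay among neighbors that were lower and neighbors that were higher in RAB6A siRNA. Outside the spans of Uso1 and Sdad1, the higher neighbor was Naaa, with Mthfd2l nearly level. These genes were chosen by distance and by a mean of at least 0.5 FPKM over both groups, and are given as values without a test. Gm43040 reached this mean only through RAB6A siRNA, the group in which it was high.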
